A study of Mus musculus with 9 samples.

Results

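The cell cycle and proliferation genes described here are 40 genes of DNA replication, S phase and mitosis, found by gene symbol among the 55385 genes of a table of mouse kidney RNA. The names were chosen for what the genes do, but with earlier results of these data known. All 40 passed the filter on low counts. They fall into 7 groups by role, from the proteins that prepare replication origins to those that build the spindle. The libraries came from polyadenylated RNA of C57BL/6 kidneys, in 3 groups of 3. Control mice had no disease and no treatment. HN mice had hyperuricemic nephropathy, a kidney injury with raised uric acid, and were untreated. PEC mice had the same disease and received pectolinarigenin, a plant flavonoid. Per the study's methods, the mice were C57BL/6J males of 8 to 10 weeks. The induction of disease took 4 weeks and used 2.4 g/kg potassium oxonate plus 0.16 g/kg adenine, fed on alternate days. By the same source, separate groups took PEC by mouth at 25 or 50 mg/kg on each day of that period. PEC vs HN thus compares mice treated from the start of induction with untreated ones. The paper's results name 25 mg/kg for the sequenced kidneys. The dose is not on the sample labels, and the titles of the Control libraries carry the word HN, although their disease state reads control.

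Total counts ran from 57714111 in PEC 3 to 81069646 in HN 8, with a median of 74397038 per library. The kidney marker Umod (uromodulin) stood at 1032, 1127 and 1096 scaled FPKM in Control 2, 4 and 5, at 1207, 1041 and 1114 in HN 4, 8 and 12 and at 1109, 1188 and 1038 in PEC 1, 2 and 3. Scaled FPKM here means the deposited FPKM (fragments per gene length and library total) divided by the library's TMM factor, a factor that sets the bulk of genes to a common level, so levels can be compared between genes and between libraries. The injury marker Havcr1 stood at 1.88, 1.01 and 1.25 scaled FPKM in the Control libraries, in that order, and at 239.9, 269.7 and 273 in the HN libraries. Umod was abundant in all 9 libraries, and Havcr1 was low in the 3 libraries whose titles carry the word HN but whose disease state reads control.

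The groups also differed in what else was sequenced. Mitochondrial genes took 13.3, 12.9 and 16.3% of the counts (Control), 6.01, 6.22 and 6.34% (HN), and 12.99, 10.3 and 13.6% (PEC), and the TMM factors were 0.819, 0.832 and 0.778, 1.15, 1.2 and 1.22, and 1.05, 1.02 and 1.05. Ribosomal RNA loci took 0.296, 1.72 and 0.302% of the counts in PEC libraries and at most 0.00419% in the others. Every PEC library thus stood apart from every Control and HN library, and PEC 2 from PEC 1 and PEC 3. A difference in how the PEC libraries were made cannot be told apart from treatment in PEC vs HN or PEC vs Control. Without the mitochondrial, ribosomal RNA and immunoglobulin genes, 34 members passed as higher in HN vs Control and 4 as lower in PEC vs HN, the same counts as with them. Without PEC 2, the medians of the members were -0.35 in PEC vs HN and 1.52 in PEC vs Control on the log2 scale.

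A dividing cell first loads the Mcm helicase onto origins in G1 with Cdt1, then fires them in S phase when cyclin E and cyclin A kinases act and E2F factors switch on the genes for DNA synthesis. Cdk1 with cyclin B then drives mitosis, in which Aurora and Polo-like kinases, kinetochore proteins and motors align the chromosomes, and Cdc20 with Ube2c starts the destruction of cyclins that ends it. Most cells of the adult kidney rest outside the cycle, and tubular, interstitial and immune cells are all known to divide after injury.

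HN kidneys held more RNA of most replication and mitosis genes than Control kidneys. By median, in the edgeR fit, the rise was larger in the role groups of mitosis than in those that licence and run replication. That difference was not tested, and single genes went the other way (Mcm3 and Mcm5 rose more than Aurka and Cenpe). Some G1 and S phase genes stayed near their Control level. The comparison asks what the disease changes. The edgeR test over all genes called a member at a fold change of at least 1.5 and an adjusted p (Benjamini-Hochberg) no higher than 0.05. By it, 34 of the 40 members were higher in HN than in Control, where 17.7% of the 21392 genes tested were, and 0 were lower, where 14.7% were. At an unadjusted p of at most 0.05 and any fold, edgeR gave 36 higher and 0 lower, and DESeq2, which made more false calls than edgeR on simulated data, called 35 higher and 0 lower, where 24.7% and 19.5% of all genes were higher, in that order. With limma on log2(FPKM + 1), 34 of 38 members were higher and 0 lower, where 30% of its 15508 genes were higher. The median log2 fold change of the members was 2.07, a 4.19-fold level, beside -0.00081 for all genes tested. On TMM-scaled CPM, every HN library was above every Control library in 36 members, where 28% of the 21392 genes tested were. None of the 34 calls was lost when any of the 9 libraries was left out. The same held under the other 10 analyses tried, among the members each could test. Over those 10 the lowest log2 fold change was 1.25 (Aurkb), 1.23 (Cdk1), 1.17 (Kif11) and 1.84 (Plk1). For the replication genes Mcm3 and Mcm5 it was 1.82 and 1.80. In deposited FPKM, Aurkb stood at 0.03, 0.02 and 0.14 in Control. How far the larger median rise of the mitosis groups depends on such low Control levels was not tested. At a fold change of at least 2 the count was 28, where 2939 of the 21392 genes tested were higher. With library totals it was 37, where 7707 of them were. A larger number of dividing cells and more of these RNAs per cell cannot be told apart in bulk tissue.

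**Figure D1:**
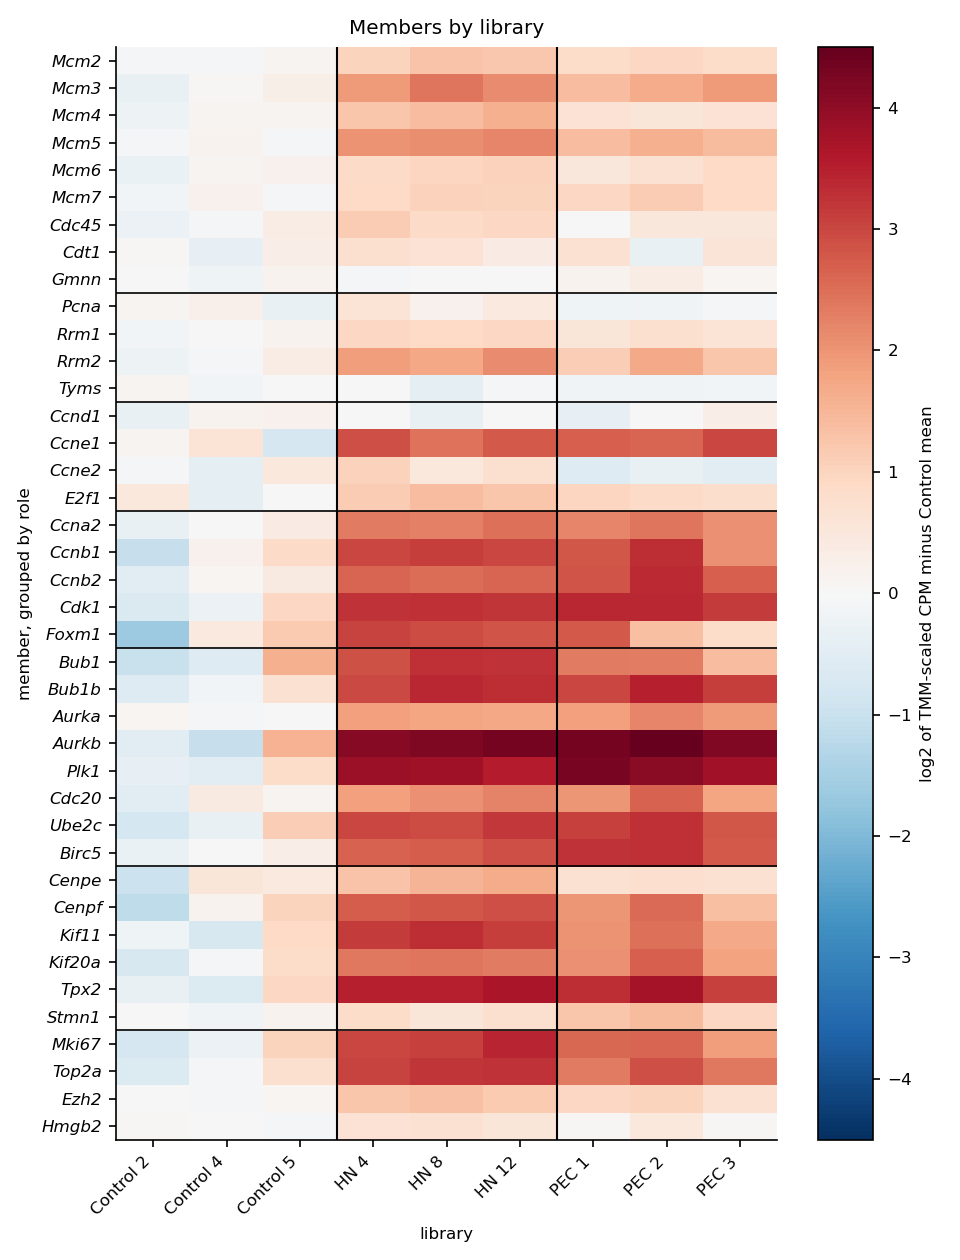
Each row is a member, grouped by role, and each column a library; colour gives log2 of the TMM-scaled CPM minus the mean of the 3 Control libraries. The HN and PEC columns are red for most members, with Aurkb, Plk1 and Tpx2 darkest, and pale for Gmnn, Tyms and Ccnd1.

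PEC-treated kidneys kept most of this raised RNA. A few replication genes and a spindle motor were called lower than in untreated HN kidneys, in no larger a share than among all genes. The mitotic kinases were called in neither direction, which carries little weight at their low counts. The comparison asks what the treatment changes in the diseased kidney, and it shares its HN libraries with HN vs Control. With edgeR, 4 of 40 members were lower in PEC than in HN (Mcm4, Mcm5, Kif11 and Ccne2), where 15.3% of the 21392 genes tested were, and 0 were higher, where 13.4% were, so neither count exceeds the share among all genes. At an unadjusted p of at most 0.05 and any fold, edgeR gave 13 lower, where 25.1% of all genes were, and 1 higher (Stmn1), where 22.7% were. DESeq2 called 5 lower, where 17% were, and 0 higher, and limma 10 of 38 lower and 0 higher. The median log2 fold change was -0.24, beside -0.015 for all genes tested, and -0.15 with offsets for GC content and length. On TMM-scaled CPM, in 18 members every PEC library was below every HN library, where 29.1% of the 21392 genes tested were, and in 4 (Gmnn, Ccnb2, Aurka and Stmn1) every PEC library was above, where 26.3% were. In scaled FPKM, Mcm3 and Mcm6 were also below without overlap, and Aurka overlapped.

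The count of 4 depended on single libraries and on the scaling. It was 8 without Control 5, 2 without HN 12 and 2 without PEC 3, which also left Stmn1 called higher, where 3406 of 22288, 2955 of 22167 and 3191 of 22071 genes were lower. Mcm4 and Ccne2 were called without any 1 of the 9 libraries. Mcm5 lost its call without HN 12 (-0.58) and without PEC 3 (-0.57), where its log2 fold change no longer reached the 1.5-fold minimum of 0.585. Kif11 lost it without Control 2, HN 4, HN 8, HN 12, PEC 1 or PEC 3, with log2 fold changes from -1.33 to -0.91 over the 9 fits. With a filter of at least 1 CPM in 3 libraries Mcm5 lost its call (-0.57), and with no filter Kif11 did. With library totals in place of TMM, the scaling of the deposited FPKM, 11 members were lower, where 21.6% of the 21392 genes tested were, and limma's 10 compare with 21.9% of its genes. That scaling moved the median of all genes to -0.21, and the median of the members to -0.43.

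**Figure D2:**
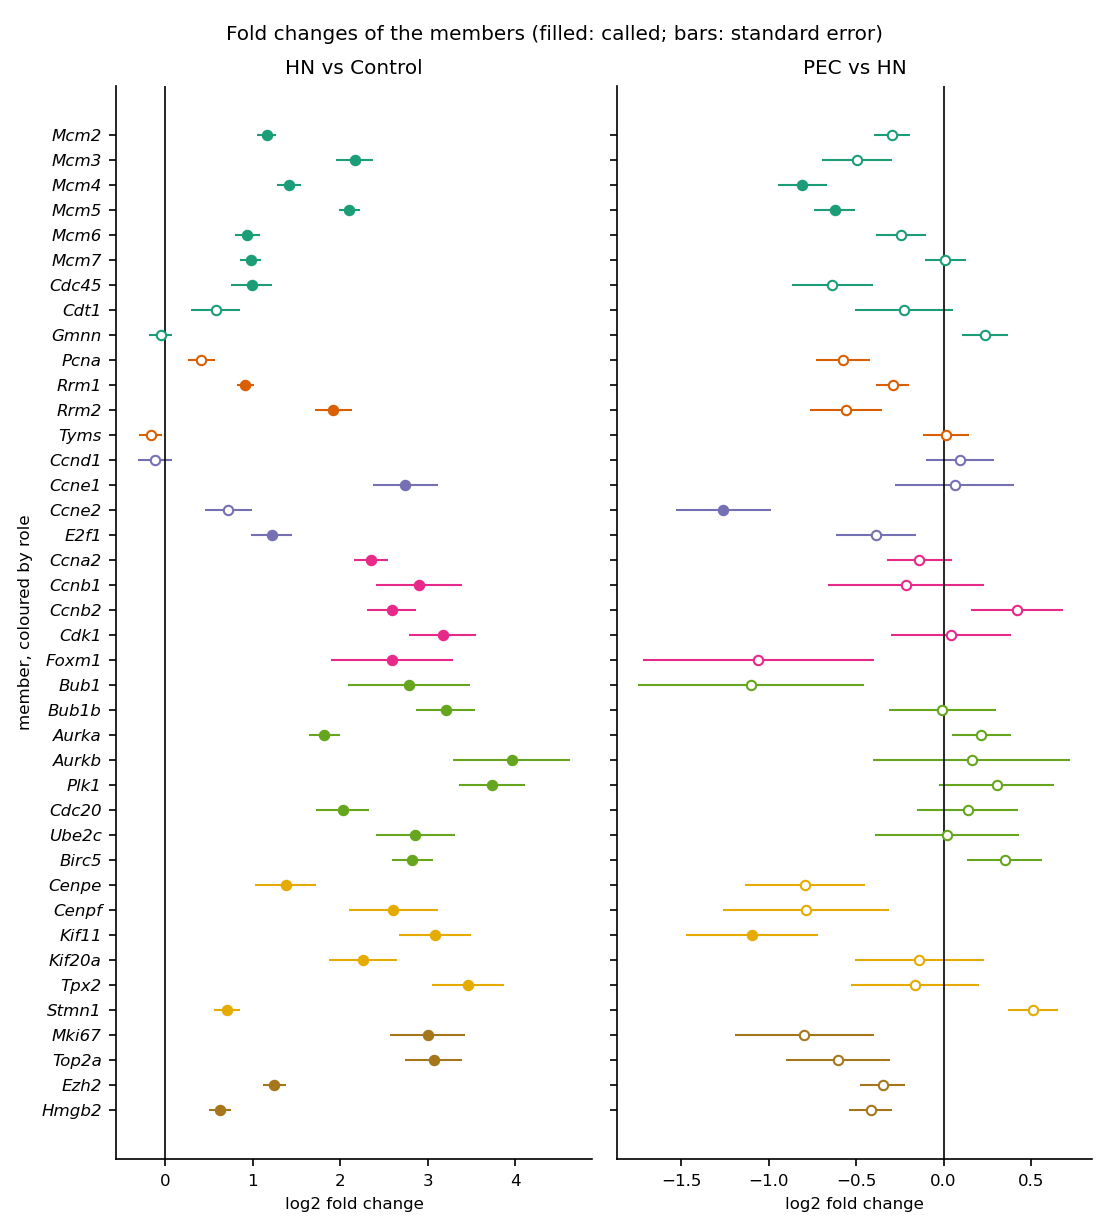
Log2 fold changes of the 40 members in HN vs Control (left) and PEC vs HN (right), with standard errors as bars and filled points where the edgeR call was made. On the left the points lie between -0.17 and 3.96, and on the right between -1.26 and 0.51 with wide bars for Bub1, Foxm1 and Aurkb.

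PEC kidneys stayed above Control kidneys for most of the genes. By median, in the edgeR fit, the log2 fold change was 3.03 in the mitotic kinase, checkpoint and anaphase group and 0.70 in the helicase group. That difference was not tested, and single genes went the other way: Bub1, Foxm1 and Cenpe were not called, while Mcm3 and Mcm5 were. The comparison asks what remains changed under treatment, and it shares libraries with both others. With edgeR, 29 of 40 members were higher in PEC than in Control, where 18.9% of the 21392 genes tested were, and 0 were lower, where 17.4% were. At an unadjusted p of at most 0.05 the counts were 30 and 0, with DESeq2 31 and 0, and with limma 25 and 0, where 26.9% of all genes were higher by the first rule and 21.5% with DESeq2, and 3581 of 15508 with limma. The median log2 fold change was 1.60, beside 0.045 for all genes, and it ran from 1.33 without Control 2 to 1.92 without Control 5. Mcm4 lost its call without Control 2 or PEC 1, Mcm6 without Control 2, and Rrm1 without Control 2 or PEC 2, with lowest log2 fold changes of 0.49, 0.56 and 0.56. Foxm1 (1.53) and Bub1 (1.69) were not called but were without Control 5, at 2.20 and 3.18. Rrm1, Kif11 and Ezh2 lost their calls with limma on log2(FPKM + 1).

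By group means of scaled FPKM, 25 members stood in the order HN, PEC, Control, and 10 in the order PEC, HN, Control (Ccne1, Ccnb2, Cdk1, Aurka, Aurkb, Plk1, Cdc20, Ube2c, Birc5 and Stmn1). Of those 10, PEC did not overlap HN in Ccnb2 and Stmn1 alone. The order depended on the scaling. By means of the deposited FPKM, 5 of the 10 (Ccne1, Cdk1, Aurkb, Cdc20 and Ube2c) were higher in HN than in PEC, and Aurka was equal in both to 2 decimals. Pcna and Ccne2 stood in the order HN, Control, PEC, and Tyms, Ccnd1 and Gmnn each in an order of their own.

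The libraries of a group also differed from each other in a common direction. The median of the members against the Control mean, on the log2 scale, was -0.30, -0.059 and 0.31 in Control 2, 4 and 5, 1.91, 2.08 and 2.17 in HN 4, 8 and 12, and 1.62, 1.68 and 1.37 in PEC 1, 2 and 3. Control 5 held the highest of the 3 Control values in 29 of 40 members and Control 2 the lowest in 25. Among PEC libraries, PEC 2 was highest in 28 and PEC 3 lowest in 23. The HN libraries were close together, with HN 12 highest in 15 and HN 4 lowest in 19. Every HN and PEC median was above every Control median. The members' summed level, in scaled FPKM, was 98.1, 112 and 115 (Control), 189, 175 and 189 (HN), and 154, 184 and 162 (PEC), of which Ccnd1 was the largest single part at a mean of 32.7. The spread was widest in the genes of cyclins and Cdk1, whose Control medians ran from -0.65 in Control 2 to 0.85 in Control 5 and whose PEC medians ran from 2.05 in PEC 3 to 3.33 in PEC 2.

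The promoters of many members carried letters known from cell cycle genes. RefSeq promoter windows (GRCm38.p6), from 250 bases before to 50 after a gene's start, were at hand for 30 of the 40 members, in 31 windows, and for none of Tpx2, Stmn1, Kif20a, Ccna2, Ccnd1, Ccne2, Foxm1, Aurkb, Gmnn and Mcm4. Both strands were searched for the cell cycle homology region CHR (TTTGAA or TTCGAA), known from genes of mitosis, for the E2F site (TTTCCCGC, TTTGGCGC, TTTCGCGC or TTTGCCGC), known from genes of S phase, and for the CCAAT box (CCAAT). CHR letters were in 16 of the 31 windows (51.6%), and in 19.2% of all 32851 windows. E2F letters were in 7 (22.6%), against 2.27%, and CCAAT in 26 (83.9%), against 37.4%. By role, CHR letters were in 6 of 7 windows of mitotic kinases, checkpoint and anaphase genes and in 3 of 8 of the helicase group, while E2F letters were in 0 and 5 of them. Not all groups fit the known pattern: E2F letters were in 0 of 4 windows of the clamp and nucleotide group, and the 2 windows of the G1 and S phase cyclins and E2F (Ccne1 and E2f1) held none of the 3 motifs. The windows of Tyms and of the mitosis gene Birc5 held none either. No difference between groups was tested. A match is a description of the letters and was not tested for binding.

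From the 6 role groups with a match, 1 window each is shown, of the member with the largest HN vs Control change among those with a match, to set the letters of S phase genes beside those of mitosis genes. They are Mcm3 on the minus strand of chr1:20820263-20820562, Rrm2 on the plus strand of chr12:24708004-24708303, Cdk1 on the minus strand of chr10:69352863-69353162, Plk1 on the plus strand of chr7:122159185-122159484, Kif11 on the plus strand of chr19:37376132-37376431 and Top2a on the minus strand of chr11:99024140-99024439. Each is written 5′ to 3′ along the gene's strand, and capitals mark the motifs on either strand.
Mcm3: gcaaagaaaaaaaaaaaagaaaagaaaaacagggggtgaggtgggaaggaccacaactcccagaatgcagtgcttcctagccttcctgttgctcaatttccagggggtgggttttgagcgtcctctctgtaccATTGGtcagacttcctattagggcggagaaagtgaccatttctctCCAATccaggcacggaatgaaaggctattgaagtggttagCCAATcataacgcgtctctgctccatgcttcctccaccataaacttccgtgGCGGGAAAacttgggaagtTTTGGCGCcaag
Rrm2: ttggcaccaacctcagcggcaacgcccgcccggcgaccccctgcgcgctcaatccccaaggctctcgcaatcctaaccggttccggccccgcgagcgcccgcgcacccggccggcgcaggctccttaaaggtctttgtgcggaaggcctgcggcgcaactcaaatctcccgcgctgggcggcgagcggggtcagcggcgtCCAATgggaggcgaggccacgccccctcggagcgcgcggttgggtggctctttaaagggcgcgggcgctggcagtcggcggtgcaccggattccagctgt
Cdk1: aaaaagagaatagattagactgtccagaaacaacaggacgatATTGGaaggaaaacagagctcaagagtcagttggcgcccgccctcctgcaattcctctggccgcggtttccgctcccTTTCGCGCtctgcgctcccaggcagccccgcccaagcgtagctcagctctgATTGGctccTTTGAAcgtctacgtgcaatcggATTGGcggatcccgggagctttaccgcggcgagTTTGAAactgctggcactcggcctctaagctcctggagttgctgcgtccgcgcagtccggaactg
Plk1: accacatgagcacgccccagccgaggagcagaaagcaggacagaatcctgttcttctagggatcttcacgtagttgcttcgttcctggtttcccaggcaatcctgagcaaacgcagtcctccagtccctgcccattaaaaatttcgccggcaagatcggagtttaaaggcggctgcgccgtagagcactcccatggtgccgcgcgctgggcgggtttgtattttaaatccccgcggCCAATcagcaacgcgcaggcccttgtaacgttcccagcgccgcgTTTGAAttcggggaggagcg
Kif11: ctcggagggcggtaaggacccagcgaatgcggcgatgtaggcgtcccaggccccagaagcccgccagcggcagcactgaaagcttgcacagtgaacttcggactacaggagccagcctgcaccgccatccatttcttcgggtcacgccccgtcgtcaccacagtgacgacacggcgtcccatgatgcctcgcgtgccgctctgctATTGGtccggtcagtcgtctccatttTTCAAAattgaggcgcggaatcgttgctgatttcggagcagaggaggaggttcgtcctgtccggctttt
Top2a: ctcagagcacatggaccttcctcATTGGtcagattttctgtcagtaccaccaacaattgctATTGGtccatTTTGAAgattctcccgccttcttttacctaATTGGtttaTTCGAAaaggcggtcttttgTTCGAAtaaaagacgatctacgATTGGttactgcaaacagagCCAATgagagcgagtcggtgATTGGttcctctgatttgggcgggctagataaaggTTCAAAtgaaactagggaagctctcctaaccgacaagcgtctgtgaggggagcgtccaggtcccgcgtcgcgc
The Mcm3 and Rrm2 windows, of genes of S phase, hold no CHR letters, and the Mcm3 window ends in a pair of E2F matches. The Plk1, Kif11 and Top2a windows, of genes that act in mitosis or on mitotic chromosomes, hold CHR and CCAAT letters but no E2F match, and the Cdk1 window holds all 3 motifs.

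**Figure D3:**
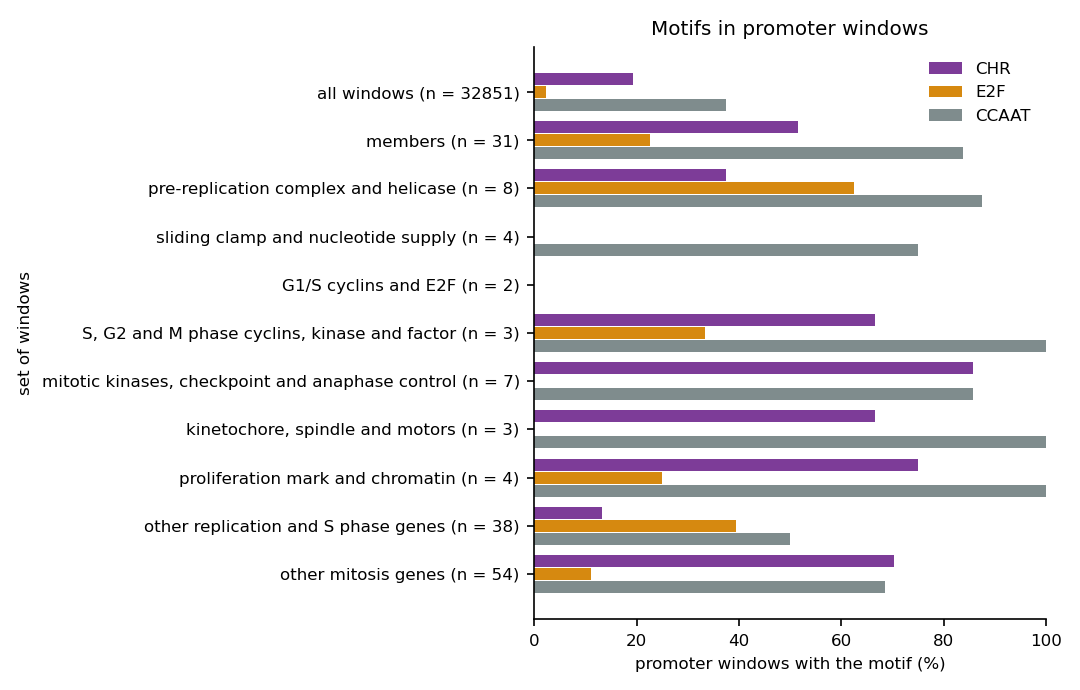
Percentage of promoter windows with each motif on either strand, for all windows, the members, their role groups and the other replication and mitosis genes, with the number of windows as n. The other mitosis genes had CHR letters in 70.4% and the other replication genes E2F letters in 39.5%.

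In the group that licenses and unwinds origins, 7 of 9 members were called higher in HN and 2 were lower in PEC vs HN. The medians were 0.99 and -0.29. Among all genes tested 17.7% and 15.3% were called so, the shares to set beside every role group. Of this group, Mcm4 alone was lower without HN 12, without PEC 3 and with at least 1 CPM in 3 libraries. With library totals Mcm3, Mcm4, Mcm5 and Cdc45 were. Mcm3 (ENSMUSG00000041859, chr1:20802968-20820312 on GRCm38), a subunit of the replicative helicase, stood at 0.831, 1.09 and 1.25 (Control), 3.96, 5.55 and 4.52 (HN), and 2.67, 3.28 and 3.85 (PEC), here and from now on in scaled FPKM and in the order of library numbers. All HN values were above all Control values, and HN 4, the lowest of its group, was level with PEC 3, the highest of its group. Its log2 fold change was 2.17 (SE 0.21, adjusted p 4.60e-05) in HN vs Control and -0.50 (SE 0.20, adjusted p 0.0784) in PEC vs HN by edgeR with Benjamini-Hochberg. Mcm4 (ENSMUSG00000022673, chr16:15623897-15637400), another subunit, stood at 2.09, 2.68 and 2.69 (Control), 5.75, 6.41 and 7.4 (HN), and 3.76, 3.53 and 3.75 (PEC). The 3 groups did not overlap, and the PEC values lay close together. It changed by 1.41 (SE 0.14, adjusted p 5.24e-05) and -0.81 (SE 0.14, adjusted p 0.00184) in the same pair of comparisons by edgeR with Benjamini-Hochberg. Mcm5 (ENSMUSG00000005410, chr8:75109569-75128439) stood at 1.03, 1.21 and 1.07 (Control), 4.47, 4.65 and 5.0 (HN), and 2.81, 3.35 and 2.9 (PEC). Again no group overlapped another, with PEC between HN and Control. The edgeR changes with Benjamini-Hochberg were 2.11 (SE 0.12, adjusted p 3.70e-06) and -0.62 (SE 0.12, adjusted p 0.00304).

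The other helicase subunits rose as well, Mcm2 by 1.16, Mcm6 by 0.94 and Mcm7 by 0.98, and in PEC vs HN they changed by -0.29, -0.24 and 0.01, none of them called. Mcm6 was the most abundant of the 9 members, at a mean of 7.08 scaled FPKM over the 9 libraries. Cdc45, which turns the loaded helicase into its active form, was called higher in HN (0.99), and in PEC, where it was lower by -0.64 with an adjusted p of 0.0566 by edgeR with Benjamini-Hochberg, all 3 values lay below all HN values. It was called there without Control 5. Cdt1, the loader of the helicase, stood at 1.49, 1.12 and 1.79 (Control), 2.39, 2.26 and 1.83 (HN), and 2.25, 1.13 and 2.07 (PEC). Every HN value was above every Control value, and PEC 2 lay far below PEC 1 and PEC 3, at the level of the lowest Control. It was not called in HN vs Control, at 0.58 (SE 0.28, adjusted p 0.133) by edgeR with Benjamini-Hochberg, but was with library totals, limma at either pseudocount and the groups compared alone, at up to 1.14. Gmnn (geminin), which blocks Cdt1 after S phase begins, stood at 5.99, 5.2 and 6.63 (Control), 5.56, 5.73 and 5.66 (HN), and 6.34, 7.32 and 6.06 (PEC). Its HN values lay within the Control range and its PEC values above the HN range. It was not called in HN vs Control, at -0.049 (SE 0.13, adjusted p 0.803), or in PEC vs HN, at 0.24 (SE 0.13, adjusted p 0.185), by edgeR with Benjamini-Hochberg.

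Among the sliding clamp and the enzymes that supply nucleotides, 2 of 4 members were called higher in HN and 0 of 4 changed in PEC vs HN by edgeR, with medians of 0.67 and -0.43. Without HN 8 or without PEC 2 the latter count was 1 lower (Pcna and Rrm2, in that order), and with GC and length offsets both were called and the median was -0.24. Rrm2, the subunit of ribonucleotide reductase made in S phase, stood at 1.27, 1.41 and 1.9 (Control), 5.59, 4.99 and 6.55 (HN), and 3.19, 4.86 and 3.46 (PEC). The HN values were the highest, PEC 2 came close to them, and no group overlapped another. By edgeR with Benjamini-Hochberg it changed by 1.92 (SE 0.21, adjusted p 0.000104) in HN vs Control and -0.56 (SE 0.21, adjusted p 0.0582) in PEC vs HN. Rrm1, the larger subunit, which is present through more of the cycle, rose by 0.92. Pcna, the clamp that holds DNA polymerase on its template, stood at 21.1, 22.7 and 15.7 (Control), 29.99, 22.1 and 25.8 (HN), and 16.7, 17.1 and 17.9 (PEC). The HN and Control values touched, HN 8 lying below Control 4, and every PEC value was below every HN value. It was called in neither comparison, at 0.41 (SE 0.15, adjusted p 0.0585) and -0.57 (SE 0.15, adjusted p 0.0167) by edgeR with Benjamini-Hochberg, and in PEC vs HN it missed the fold minimum alone. Library totals and limma called it in both, and the fit with no filter in PEC vs HN. Tyms, which makes thymidylate, stood at 2.75, 2.31 and 2.62 (Control), 2.51, 1.85 and 2.39 (HN), and 2.19, 2.26 and 2.28 (PEC). HN overlapped both other groups, and the PEC values were at the level of the lowest Control. Its HN vs Control change was -0.17 (SE 0.13, adjusted p 0.357) by edgeR with Benjamini-Hochberg.

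The calls differed among the cyclins of G1 and of entry into S phase, and no difference between these genes was tested. Ccne1, a cyclin E that starts S phase with Cdk2, stood at 0.134, 0.192 and 0.0643 (Control), 1.02, 0.748 and 0.923 (HN), and 0.87, 0.842 and 1.07 (PEC). All HN and PEC values were above all Control values, and HN and PEC overlapped. The edgeR fit with Benjamini-Hochberg put its changes at 2.75 (SE 0.37, adjusted p 0.000357) and 0.063 (SE 0.34, adjusted p 0.903). Ccne2 (ENSMUSG00000028212, chr4:11191351-11204779), the other cyclin E, stood at 0.599, 0.445 and 0.861 (Control), 1.27, 0.864 and 0.997 (HN), and 0.392, 0.489 and 0.411 (PEC). The HN values were the highest of the 3 groups, HN 8 just above Control 5, and the PEC values were all below them and within or below the Control range. It was not called in HN vs Control, at 0.72 (SE 0.27, adjusted p 0.0579), and fell in PEC vs HN, at -1.26 (SE 0.27, adjusted p 0.00624), by edgeR with Benjamini-Hochberg. Without Control 5 it was called in HN vs Control as well, at 1.01. So it was with library totals, DESeq2, limma on log2(FPKM + 0.1) and GC and length offsets. The same offsets ended the Ccne2 call in PEC vs HN, at -0.75 with an adjusted p of 0.0511 by edgeR with Benjamini-Hochberg. Its exons share 17.4% of their bases with Ints8 on the opposite strand, which had a mean of 2105 counts against 212 for Ccne2, and whether counting heeded the strand is not given in the sources used here.

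Ccnd1, the cyclin D that answers growth signals in G1, was the most abundant member and stood at 26.5, 37.6 and 38.5 (Control), 34.1, 26.6 and 32.7 (HN), and 24.9, 33.6 and 39.9 (PEC). The groups overlapped fully, with Control 2, HN 8 and PEC 1 the low ones. It was called in no comparison, at -0.11 (SE 0.20, adjusted p 0.693) in HN vs Control and 0.094 (SE 0.20, adjusted p 0.737) in PEC vs HN by edgeR with Benjamini-Hochberg. E2f1, the transcription factor that cyclin kinases free at the start of S phase, rose by 1.22 in HN and changed by -0.39 in PEC vs HN without a call.

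All 5 members that drive S, G2 and M phase were called higher in HN, with a median of 2.59, and 0 of 5 were called in PEC vs HN by edgeR, with a median of -0.14 that was 0.082 without PEC 3. Cdk1 (ENSMUSG00000019942, chr10:69335146-69352938), the kinase that starts mitosis, stood at 0.0855, 0.108 and 0.257 (Control), 1.37, 1.4 and 1.33 (HN), and 1.45, 1.49 and 1.22 (PEC). HN and PEC values overlapped each other and lay far above the Control values. Tested by edgeR with Benjamini-Hochberg, it changed by 3.17 (SE 0.38, adjusted p 0.000169) and 0.041 (SE 0.34, adjusted p 0.939). Ccna2, the cyclin A of S and G2 phase, stood at 0.44, 0.541 and 0.72 (Control), 2.85, 2.7 and 3.09 (HN), and 2.53, 2.97 and 2.26 (PEC). It showed the same picture of raised and overlapping HN and PEC values. Its changes by edgeR with Benjamini-Hochberg were 2.36 (SE 0.20, adjusted p 2.07e-05) and -0.14 (SE 0.19, adjusted p 0.596). The mitotic cyclins Ccnb1 and Ccnb2 rose by 2.90 and 2.59 and changed by -0.21 and 0.42 in PEC vs HN, neither called. Foxm1, the transcription factor of late cell cycle genes, rose by 2.59. In PEC it stood at 1.08, 0.401 and 0.277, so that PEC 1 was near the HN values of 1.34, 1.26 and 1.15 and PEC 2 and PEC 3 were near the Control values of 0.0489, 0.216 and 0.373, and its change of -1.06 (SE 0.66) was not called by edgeR. Limma called it lower, at -0.66 on log2(FPKM + 1).

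The 8 mitotic kinases, checkpoint and anaphase genes were all called higher in HN. Their median of 2.84 was the largest of the role groups in the edgeR fit. In PEC vs HN 0 of 8 were called by edgeR, 1 without Control 5 (Bub1), and the median was 0.15, a sign that turned to -0.057 with library totals, -0.041 with limma, -0.10 with GC and length offsets and -0.037 without PEC 2. Aurkb (ENSMUSG00000020897), the kinase that corrects faulty spindle attachments, had 7, 4 and 39 counts (Control), 335, 418 and 414 (HN), and 356, 373 and 249 (PEC). The Control counts were close to none, Control 5 holding most of them, and HN and PEC counts overlapped. By edgeR with Benjamini-Hochberg it changed by 3.96 (SE 0.67, adjusted p 0.00123) and 0.16 (SE 0.57, adjusted p 0.85). Aurka, which builds the spindle poles, had the smallest rise of the group and stood at 0.464, 0.409 and 0.45 (Control), 1.61, 1.53 and 1.49 (HN), and 1.58, 2.08 and 1.65 (PEC). The Control values were close together and low, PEC 1 was level with the highest HN value, and PEC 2 and PEC 3 were above it. The edgeR fit with Benjamini-Hochberg put its changes at 1.82 (SE 0.18, adjusted p 4.53e-05) and 0.22 (SE 0.17, adjusted p 0.344). Plk1 (ENSMUSG00000030867, chr7:122159439-122169873), the Polo-like kinase, stood at 0.134, 0.12 and 0.334 (Control), 2.86, 2.78 and 2.28 (HN), and 3.72, 3.29 and 2.64 (PEC). PEC 1 and PEC 2 were above every HN value and PEC 3 was within the HN range, with all Control values far below. Tested by edgeR with Benjamini-Hochberg, it changed by 3.74 (SE 0.38, adjusted p 6.18e-05) and 0.30 (SE 0.33, adjusted p 0.503).

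Birc5 (survivin), partner of Aurkb, rose by 2.83, and the spindle checkpoint genes Bub1 and Bub1b by 2.79 and 3.21. Cdc20 and Ube2c, which start the exit from mitosis, rose by 2.03 and 2.86. In PEC vs HN, Bub1 had the largest change of the group, at -1.10 (SE 0.65), with every PEC value below every HN value. Birc5, Cdc20, Ube2c and Bub1b changed by 0.35, 0.14, 0.02 and -0.0068 there, with standard errors from 0.21 to 0.41. Whether the PEC vs HN change differs between this group and the helicase group was not tested. An expressed copy, Plk-ps1, matches 82.4% of the Plk1 transcript and had a mean of 62.3 counts against 390 for Plk1.

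All 6 kinetochore, spindle and motor genes were called higher in HN, with a median of 2.44, and 1 was lower in PEC vs HN, with a median of -0.47. With GC and length offsets 0 were called in PEC vs HN by edgeR, and the median was -0.093. Kif11 (ENSMUSG00000012443, chr19:37376403-37421859), the motor that pushes spindle poles apart, stood at 0.122, 0.0721 and 0.257 (Control), 1.25, 1.38 and 1.19 (HN), and 0.555, 0.773 and 0.44 (PEC). The 3 groups did not overlap, and PEC lay between Control and HN. Its changes by edgeR with Benjamini-Hochberg were 3.08 (SE 0.41, adjusted p 0.0003) and -1.10 (SE 0.38, adjusted p 0.0454). Tpx2, which seeds spindle microtubules, stood at 0.122, 0.108 and 0.334 (Control), 2.02, 2.02 and 2.26 (HN), and 1.72, 2.39 and 1.47 (PEC). HN and PEC values overlapped, far above Control. By edgeR with Benjamini-Hochberg it changed by 3.46 (SE 0.41, adjusted p 0.000153) and -0.16 (SE 0.37, adjusted p 0.759). Stmn1 (stathmin), which takes microtubules apart, stood at 10.8, 9.76 and 12.2 (Control), 19.2, 15.8 and 17.7 (HN), and 25.3, 29.01 and 20.01 (PEC). The groups did not overlap, and PEC was the highest. It rose by 0.71 (SE 0.14, adjusted p 0.00365) in HN vs Control, and in PEC vs HN its change of 0.51 (SE 0.14, adjusted p 0.0206) passed the adjusted p and not the fold minimum by edgeR with Benjamini-Hochberg, although without PEC 3 it passed both, at 0.66. That log2 fold change was 0.09 under GC and length offsets and 0.31 under library totals, with adjusted p of 0.683 and 0.0874 by edgeR with Benjamini-Hochberg, and 0.27 with limma, which did not pass either. The kinetochore genes Cenpe and Cenpf rose by 1.38 and 2.61 and the motor Kif20a by 2.26. In PEC vs HN their log2 fold changes were -0.79, -0.79 and -0.14, none of them called by edgeR. With GC and length offsets those of Cenpe and Cenpf were -0.12 and -0.087, again without a call. Cenpe was called lower in PEC vs HN without Control 2.

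The proliferation mark and the chromatin genes were all called higher in HN, 4 of 4 with a median of 2.12, and 0 of 4 were called in PEC vs HN by edgeR, with a median of -0.51 and all 4 signs negative. With GC and length offsets the median was -0.19, and Mki67, Top2a, Ezh2 and Hmgb2 changed by -0.28, -0.11, -0.26 and -0.057, none called. Without Control 5 that count was 2 (Top2a and Mki67). Mki67 (ENSMUSG00000031004, chr7:135689784-135716361), which coats mitotic chromosomes and is the usual mark of dividing cells, stood at 0.195, 0.276 and 0.681 (Control), 2.7, 2.83 and 3.55 (HN), and 1.94, 2.05 and 1.2 (PEC). All PEC values were below all HN values and above all Control values. The edgeR fit with Benjamini-Hochberg put its changes at 3.0 (SE 0.43, adjusted p 0.000475) and -0.80 (SE 0.40, adjusted p 0.146). Top2a (ENSMUSG00000020914, chr11:98992943-99024189), the topoisomerase that untangles sister chromatids, stood at 0.195, 0.288 and 0.527 (Control), 2.61, 2.93 and 2.98 (HN), and 1.59, 2.36 and 1.61 (PEC). Here too the 3 groups did not overlap and PEC lay in the middle. Tested by edgeR with Benjamini-Hochberg, it changed by 3.07 (SE 0.33, adjusted p 8.00e-05) and -0.60 (SE 0.30, adjusted p 0.143). Hmgb2, a DNA-bending protein, stood at 7.48, 7.04 and 6.97 (Control), 11.03, 11.5 and 10.1 (HN), and 7.23, 9.82 and 7.15 (PEC). HN was above both other groups without overlap, and PEC 2 was above PEC 1 and PEC 3, which were at the Control level. Its changes by edgeR with Benjamini-Hochberg were 0.63 (SE 0.12, adjusted p 0.00312) and -0.42 (SE 0.12, adjusted p 0.0258). The latter did not pass the adjusted p of edgeR with Benjamini-Hochberg under the offsets, while Hmgb2 was called lower with library totals, at a log2 fold change of -0.62, and with limma, at -0.59. Ezh2, which sets a repressive histone mark, rose by 1.25 and changed by -0.35 in PEC vs HN without a call.

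**Figure D4:**
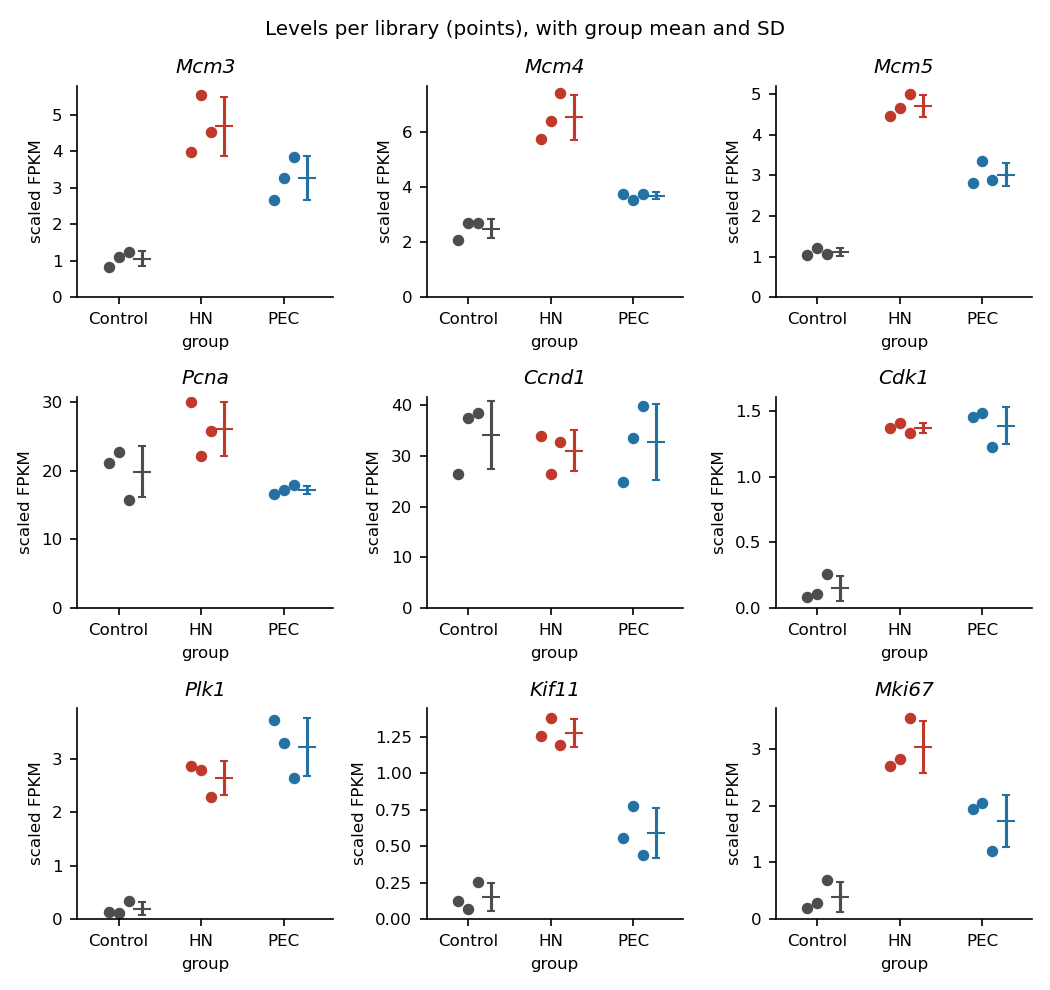
Scaled FPKM of 9 members in each library as points, with the group mean and SD of the 3 libraries beside them. Mcm4, Mcm5, Kif11 and Mki67 show PEC between Control and HN, Cdk1 and Plk1 show PEC at or above HN, and Ccnd1 shows 3 overlapping groups.

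The PEC vs HN changes of the members went with the make-up of their transcripts. Across the 40 members, Spearman's rho of the log2 fold change was 0.52 with transcript GC content and -0.51 with transcript length, and across 21358 genes 0.17 and -0.33. Genes in 1 set of libraries are not independent replicates, so these are descriptions. In HN vs Control the members' values were 0.047 and 0.21, and those across all genes 0.040 and 0.094. In PEC vs Control the members' values were 0.24 and 0.0021, and those across all genes 0.19 and -0.18. Ccne2, with the largest fall, had the lowest GC content of the members at 36.3%, and Plk1 (0.30), at 55.98%, was among the highest. The members with the highest GC content went against this trend, E2f1 (58.3%) at -0.39 and Cdt1 (57.8%) at -0.23. With offsets that remove each library's trend with GC content and length, the members' values for PEC vs HN were -0.027 and 0.13. Then 5 members were called lower (Cdc45, Mcm5, Rrm2, Mcm4 and Pcna), where 11% of the genes were. Kif11 and Ccne2 lost the call, at -0.58 and -0.75, with adjusted p of 0.245 and 0.0511 by edgeR with Benjamini-Hochberg. Over the 10 other analyses, the adjusted p ran from 0.000778 to 0.245 for Kif11 and from 8.60e-05 to 0.0511 for Ccne2. All 34 rises in HN vs Control kept their calls with the offsets.

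**Figure D5:**
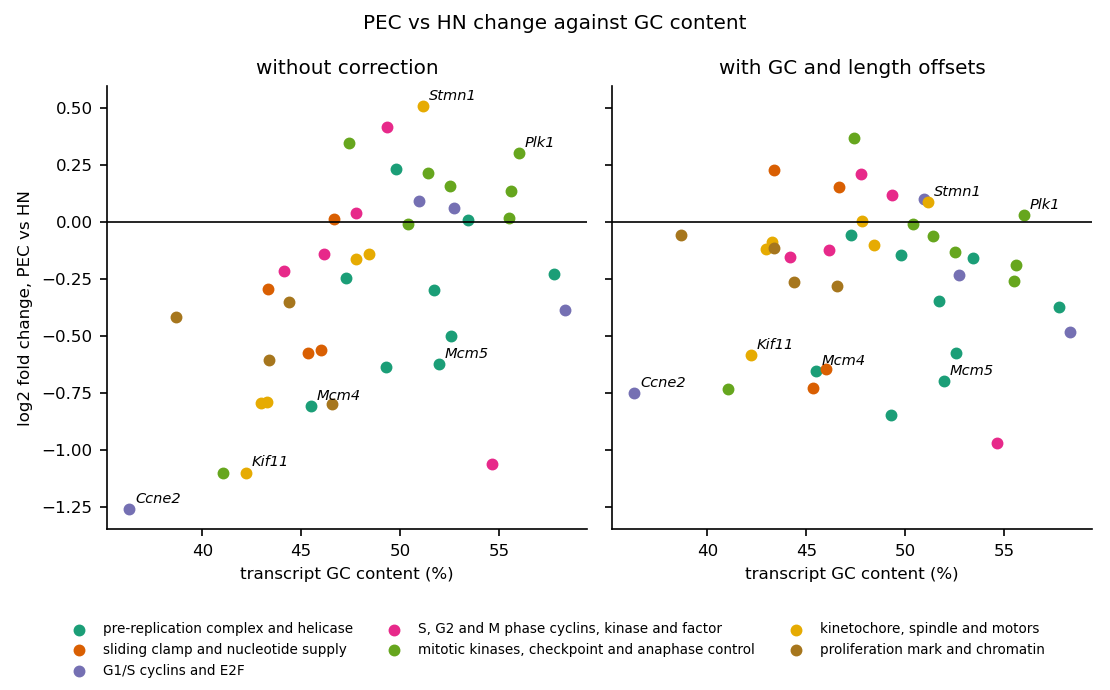
Log2 fold change of each member in PEC vs HN against the GC content of its transcript, without correction (left) and with GC and length offsets (right), coloured by role. The slope from Ccne2 at the lower left to Plk1 at the upper right on the left side is absent on the right, where rho is -0.027. E2f1 and Cdt1, with the highest GC content, lie below 0 on the left side.

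Genes of the same pathway outside the members were taken from 4 lists. For these and the marker lists below, the shares among all genes tested are the measure. In the edgeR fit they were 17.7% higher and 14.7% lower in HN vs Control, and 13.4% higher and 15.3% lower in PEC vs HN. In PEC vs HN, 21.6% were lower with library totals and 11% with GC and length offsets. In HN vs Control, edgeR called 29 of 42 other replication and S phase genes higher and 1 lower, with a median log2 fold change of 1.21. The largest were Uhrf1 (3.73, SE 0.20), Exo1 (3.56, SE 0.50) and Dtl (3.52, SE 0.26), which act in the copying of DNA methylation, in DNA repair and in the control of Cdt1. In PEC vs HN, 2 were higher and 6 lower, neither count above the share among all genes. The largest changes were Hells (-1.73, SE 0.19), Pola1 (-1.60, SE 0.16) and Exo1 (-1.26, SE 0.44). Without any 1 of the HN or PEC libraries these counts ran from 0 to 1 higher and from 3 to 6 lower, and without any 1 of the Control libraries they stayed within 1.5 times. Exo1 kept that call in 2 of 9 fits that left out a library, without Control 2 and without Control 4, with an adjusted p of up to 0.141 by edgeR with Benjamini-Hochberg. Of 60 other mitosis genes, 53 were higher and 3 lower in HN vs Control, with a median of 2.43, led by Sgo2a (5.54, SE 0.71), Kif14 (4.64, SE 0.42) and Kif18b (4.44, SE 0.74), which guard cohesion or move along microtubules. In PEC vs HN, 1 was higher and 12 lower, with a median of -0.24, led by Ncapg2 (-2.96, SE 0.35), Smc2 (-1.93, SE 0.15) and Knl1 (-1.88, SE 0.31), of which the first pair belong to condensin. Kif18b, Sgo2a, Cdc25c and Melk had no counts in 1 Control library each.

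Of 10 other G1 cyclins and kinases, 5 were called higher and 0 lower by edgeR in HN vs Control, led by Myc (1.53, SE 0.30), Ccnd2 (0.97, SE 0.17) and Cdk6 (0.94, SE 0.11). In PEC vs HN, 2 were lower, Cdk7 (-0.80, SE 0.11) and Ccnd2 (-0.75, SE 0.17), and the count was 4 without PEC 1. Of 17 inhibitors and repressors of the cycle, 5 were higher and 2 lower in HN vs Control, led by Cdkn2a (4.72, SE 1.10), Btg2 (1.45, SE 0.18) and Tob1 (-1.03, SE 0.0948). Tob1 was not called with library totals or with limma. Cdkn2a, a tumour suppressor gene of senescence, had no counts in Control 4 and Control 5, so its fitted change depends on the handling of zeros. It ran from 4.15 to 9.48 with 1 library left out, the highest without Control 2, where no counts remained in Control. Its levels were 0.976, 1.35 and 0.392 scaled FPKM in HN and 0.249, 0.127 and 0.191 in PEC libraries. In PEC vs HN, 5 were lower, led by Cdkn2b (-1.39, SE 0.31), Rbl1 (-0.84, SE 0.18) and Ccng2 (-0.83, SE 0.0919). With GC and length offsets, Exo1, Ccnd2, Rbl1 and Ccng2 were not called in PEC vs HN, and the counts lower there were 3 of 42, 6 of 60, 1 of 10 and 3 of 17 in these lists, in the order given.

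Marker lists of macrophages, T cells, B and plasma cells, injured tubules and fibroblasts held genes called higher in HN, as the members did. In PEC vs HN the medians of these lists ran from -1.17 (macrophage) to -0.49 (B and plasma cell), beside -0.24 for the members. Of the macrophage markers, 7 of 7 were higher in HN and 6 lower in PEC vs HN, and their summed scaled FPKM, led by C1qa, was 46.7, 56.8 and 50.2 (Control), 538, 611 and 472 (HN), and 199, 229.6 and 319 (PEC). Of the T cell markers, 7 of 7 were higher in HN and 1 lower in PEC vs HN (0 without HN 8, HN 12, PEC 1 or PEC 3, and 2 without Control 4), with sums, led by Trac, of 2.37, 3.37 and 2.37 (Control), 9.44, 16.5 and 11.1 (HN), and 7.25, 9.89 and 9.83 (PEC). Of the B and plasma cell markers, 3 of 6 were higher in HN and 1 lower in PEC vs HN, with sums, led by Jchain, of 2.92, 4.47 and 7.31 (Control), 13.7, 26.3 and 25.2 (HN), and 3.99, 4.82 and 3.21 (PEC). The group means of these 3 lists were highest in HN, and in the macrophage list every PEC sum lay between the Control and HN sums. Of the injured tubule markers, 5 of 5 were higher in HN and 2 lower in PEC vs HN, with sums, led by Havcr1, of 7.52, 6.7 and 3.72 (Control), 469, 454 and 431 (HN), and 309, 345 and 353 (PEC). Of the fibroblast and pericyte markers, 6 of 6 were higher in HN and 4 lower in PEC vs HN, with sums, led by Acta2, of 49.6, 47.5 and 43.8 (Control), 183, 176 and 163 (HN), and 118, 132 and 112 (PEC). In both of these lists the PEC sums again lay between the other groups. With library totals, 3 T cell and 3 injured tubule markers were lower in PEC vs HN, where 21.6% of all genes were. With GC and length offsets, where 11% of all genes were lower, 2 B and plasma cell, 1 injured tubule and 2 fibroblast and pericyte markers were. The last list then had a median log2 fold change of -0.37 in place of -0.83. Their part in the changes of the cell cycle genes was not tested.

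Of the kidney epithelium markers, 7 of 10 were lower in HN and 5 higher in PEC vs HN (3 without HN 8, PEC 1 or PEC 2, the last with 1 lower), with sums, led by Umod, of 2752, 2994 and 2856 (Control), 1771, 1496 and 1633 (HN), and 1941, 2128 and 1768 (PEC). Of the erythroid precursor markers, 6 of 6 tested were lower in HN and 4 higher in PEC vs HN, with sums, led by the globin gene Hba-a1, of 246, 225 and 375 (Control), 53.4, 42.8 and 37.5 (HN), and 191, 233 and 215 (PEC). The group means of both sums were lowest in HN, where the members were highest. Of the neutrophil markers, 3 of 7 were tested and 0 were called in HN vs Control or PEC vs HN by edgeR, with sums, led by S100a9, of 6.9, 13.9 and 4.95 (Control), 23.1, 10.99 and 13.2 (HN), and 6.6, 7.48 and 23.6 (PEC). Elane had no counts in 8, Camp in 7 and Ngp and Mpo in 6 of the 9 libraries. Of the endothelial markers, 1 of 5 was lower in HN and 1 higher in PEC vs HN, the latter lost without Control 2, Control 4, Control 5, HN 8, HN 12 or PEC 3 (the last with 1 lower), with sums, led by Emcn, of 48.7, 52.05 and 56.2 (Control), 44.7, 44.7 and 42.6 (HN), and 35.9, 41.3 and 54.3 (PEC). With library totals and with limma at either pseudocount, 3 erythroid markers were lower in HN, and 1 each of the endothelial, neutrophil and kidney epithelium markers was higher there, with 0 endothelial markers lower. Among all genes, 7707 of 21392 were higher and 1287 lower in HN with library totals. With limma on log2(FPKM + 1), 4649 of 15508 were higher and 1024 lower, and on log2(FPKM + 0.1) 5906 and 1191. Of the kidney epithelium markers, 3 were higher in PEC vs HN with library totals and 2 with limma, beside 1 lower. Among all genes, 1951 of 21392 were higher and 4631 lower there with library totals. With limma on log2(FPKM + 1), 1356 of 15508 were higher and 3390 lower. The part of these cells in the results was not tested.

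In the annotation columns of the table, 27 members carried the GO term for the cell cycle, 18 the term for cell division and 11 that for DNA replication, among 582, 360 and 121 genes, and 18 and 5 were in the KEGG maps of the cell cycle and of DNA replication, among 117 and 29 genes. In all, 31 of 40 members carried at least 1 of these terms, and Tyms, Foxm1, Cenpe, Cenpf, Kif20a, Stmn1, Top2a, Ezh2 and Hmgb2 carried none. Some members share exon bases with a neighbour on the opposite strand, among them Kif20a with Cdc23 (29.3% of its exon bases), Ccnd1 with LTO1 (23.4%), Ube2c with Tnnc2 (22.8%, with 0.444 mean counts in Tnnc2) and Ccna2 with Exosc9 (12.5%). Reads of Cdc23, with a mean of 2829 counts against 437 for Kif20a, could count for both where strand is ignored, and this was not tested.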

How the data were processed

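RNA of 9 kidney libraries, 3 per group, was compared. The authors deposited, for 55385 genes, a whole-number count per gene and library and an FPKM value, in FPKM with 2 decimals, scaled by library totals. The program that made the counts is not given in the sources used here. The submitters' notes name Bowtie 0.12.2 with mm8 and mm9 without a role, while 51954 of 55144 coordinates equal those of GENCODE M21 on GRCm38. The counts were fitted in edgeR 4.0.16 under R 4.3.3 (TMM, filterByExpr, glmQLFit, glmQLFTest) in 1 fit over 9 libraries and 21392 genes, with Benjamini-Hochberg adjustment over all of them in each of 3 comparisons. Called means a fold change of at least 1.5 and an adjusted p of at most 0.05. Standard errors are the log2 fold change over the root of the F statistic. The p-values measure the spread between these libraries, and neither the labels nor the paper says that each is a separate mouse. An exact permutation test of 3 against 3 cannot go below 0.1 and was not used.

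Alternatives were DESeq2 1.42.0, limma 3.58.1 (trend) on log2(FPKM + 1) and log2(FPKM + 0.1) where the mean FPKM reached 0.5, median-of-ratios factors, library totals, no filter, at least 1 CPM in 3 libraries, removal of mitochondrial, ribosomal RNA and immunoglobulin genes, offsets for GC content and length (splines of 5 degrees of freedom), the groups compared alone, other call rules, and each library left out. Copies were sought with blastn 2.17.0 (90% identity over 50% of a transcript). All 40 members are described. In other lists the 3 largest called changes are named, and in marker lists the most abundant gene and some of the genes at 0. The members and lists were chosen with earlier results of these data known. The steps were tested on simulated data, in which edgeR missed most changed genes of low counts and DESeq2 made the most false calls, so its counts may lean high. The recovery first required was not met by any of the 3 tools. It was replaced, after this was seen, by requirements on sign, size, false calls and well-counted genes. A member without a call at low counts therefore carries little weight. Low counts here include those of the mitotic kinases, checkpoint and anaphase genes, such as Plk1 with a mean of 390.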

Additional observations from a re-analysis of the deposited data

How the results depend on the processing

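The 34 rises in HN vs Control kept their calls under each fit that could test them. The median of the members in HN vs Control was 2.63 with library totals, 1.21 with limma on log2(FPKM + 1) and 2.41 on log2(FPKM + 0.1), and in PEC vs Control 1.97 and 0.95 with the first pair. Library totals moved the median of all genes to 0.56 in HN vs Control, -0.21 in PEC vs HN and 0.40 in PEC vs Control, so changes under it are relative to these. All-gene calls were 3777 higher and 3154 lower in HN vs Control (7707 higher and 1287 lower with library totals, 4649 higher and 1024 lower with limma), 2875 higher and 3266 lower in PEC vs HN (1951 higher and 4631 lower, 1356 higher and 3390 lower) and 4053 higher and 3731 lower in PEC vs Control (6414 higher and 1962 lower, 3581 higher and 1485 lower). Members lower in PEC vs HN numbered 11 with library totals, 10 and 13 with limma (pseudocounts 1 and 0.1, the latter with a median of -0.47), 9 with the groups compared alone, 8 beside 1 higher with no fold minimum, and 2 at a fold of at least 2. Among all genes, 4249 of 15508 were lower with limma at the pseudocount 0.1, 3307 of 20812 with the groups alone, 4399 of 21392 with no fold minimum and 1823 at a fold of at least 2. With GC and length offsets the PEC vs HN median was -0.15. With 1 library left out, 2 to 8 were lower and 0 to 1 higher, and the PEC vs Control median ran from 1.33 to 1.92. Apart from the stricter or looser call rules, the cause was not tested.

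Some members without a call in the edgeR fit reported were called under an alternative. Those of HN vs Control were Cdt1 (library totals, limma on log2(FPKM + 1), limma on log2(FPKM + 0.1) and the groups compared alone), Pcna (library totals, limma on log2(FPKM + 1) and limma on log2(FPKM + 0.1)) and Ccne2 (library totals, DESeq2, limma on log2(FPKM + 0.1) and GC and length offsets). Those of PEC vs HN were Mcm3 (library totals and limma on log2(FPKM + 0.1)), Cdc45 (library totals, DESeq2, limma on log2(FPKM + 0.1), the groups compared alone and GC and length offsets), Pcna (library totals, limma on log2(FPKM + 1), limma on log2(FPKM + 0.1), no filter and GC and length offsets), Rrm2 (library totals, limma on log2(FPKM + 1), limma on log2(FPKM + 0.1) and GC and length offsets), Foxm1 (limma on log2(FPKM + 1) and limma on log2(FPKM + 0.1)), Bub1 (the groups compared alone), Cenpe (library totals, limma on log2(FPKM + 0.1) and the groups compared alone), Mki67 (limma on log2(FPKM + 1), limma on log2(FPKM + 0.1) and the groups compared alone), Top2a (library totals, limma on log2(FPKM + 1), limma on log2(FPKM + 0.1) and the groups compared alone) and Hmgb2 (library totals, limma on log2(FPKM + 1) and limma on log2(FPKM + 0.1)). Those of PEC vs Control were Cdc45 (library totals), Foxm1 (library totals, DESeq2 and limma on log2(FPKM + 0.1)), Bub1 (library totals, DESeq2 and GC and length offsets), Cenpe (library totals and GC and length offsets) and Hmgb2 (GC and length offsets). Calls lost were Mcm5 (at least 1 CPM in 3 libraries), Ccne2 (GC and length offsets) and Kif11 (no filter and GC and length offsets) in PEC vs HN, and Rrm1 (limma on log2(FPKM + 1)), Kif11 (limma on log2(FPKM + 1)) and Ezh2 (limma on log2(FPKM + 1)) in PEC vs Control. The cause was not tested.

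Log2 fold changes that changed sign follow; no call was made on them in the edgeR fit reported. With library totals, Gmnn 0.51, Tyms 0.39 and Ccnd1 0.45 in HN vs Control, Mcm7 -0.19, Tyms -0.18, Ccnd1 -0.10, Ccne1 -0.13, Cdk1 -0.16, Aurkb -0.044, Cdc20 -0.07 and Ube2c -0.18 in PEC vs HN, Pcna 0.19, Tyms 0.21 and Ccnd1 0.34 in PEC vs Control. With limma on log2(FPKM + 1), Gmnn 0.42, Tyms 0.26 and Ccnd1 0.42 in HN vs Control, Mcm7 -0.19, Tyms -0.14, Ccnd1 -0.14, Ccne1 -0.074, Cdk1 -0.11, Aurka -0.0038, Aurkb -0.041, Cdc20 -0.091 and Ube2c -0.16 in PEC vs HN, Pcna 0.16, Tyms 0.12 and Ccnd1 0.28 in PEC vs Control. With limma on log2(FPKM + 0.1), Gmnn 0.48, Tyms 0.35 and Ccnd1 0.43 in HN vs Control, Mcm7 -0.21, Tyms -0.18, Ccnd1 -0.14, Ccne1 -0.13, Cdk1 -0.17, Aurka -0.0081, Aurkb -0.066, Cdc20 -0.12 and Ube2c -0.20 in PEC vs HN, Pcna 0.17, Tyms 0.16 and Ccnd1 0.29 in PEC vs Control. With GC and length offsets, Gmnn 0.074 in HN vs Control, Mcm7 -0.16, Gmnn -0.14, Rrm1 0.23, Ccne1 -0.23, Aurka -0.061, Aurkb -0.13, Cdc20 -0.19, Ube2c -0.26 and Tpx2 0.0044 in PEC vs HN, Gmnn -0.071 and Ccne2 0.10 in PEC vs Control. With mitochondrial, ribosomal RNA and immunoglobulin genes removed, Bub1b 0.019 in PEC vs HN. With no filter, Mcm7 -0.021, Tyms -0.015 and Ube2c -0.01 in PEC vs HN. With at least 1 CPM in 3 libraries, Bub1b 0.043 in PEC vs HN, Ccnd1 0.021 in PEC vs Control. With median-of-ratios factors, Ccnd1 0.0013 in PEC vs Control. With DESeq2, Ccnd1 0.0013 in PEC vs Control. With the groups compared alone, Ccnd1 0.0036 in PEC vs Control. With 1 library left out, the ranges of those that changed sign were Gmnn -0.13 to 0.035 in HN vs Control, Mcm7 -0.084 to 0.082, Ube2c -0.10 to 0.16, Tyms -0.12 to 0.089, Ccnd1 -0.056 to 0.25, Ccne1 -0.061 to 0.16, Bub1b -0.18 to 0.093, Cdk1 -0.0046 to 0.14, Cdt1 -0.42 to 0.025, Cdc20 -0.17 to 0.33, Ccnb1 -0.57 to 0.082, Kif20a -0.44 to 0.053 and Tpx2 -0.37 to 0.0004 in PEC vs HN, Ccnd1 -0.17 to 0.14 in PEC vs Control. The cause was not tested.

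No paired analysis was made, because the study's methods assign mice to groups at random and the labels name no pairs. With 3 libraries per group and low counts in many members, some changes larger than their standard errors were not called, and a call also needed the fold minimum. Left-out fits with 2 libraries in a group assume that they vary like the others. The counting program, strand handling and cell composition of the kidneys are unknown.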
